A study of Mus musculus with 6 samples.

Results

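Heat shock proteins, chaperones and foldases were followed in the left cochlea of noise-exposed mice with and without mesenchymal stromal cells (MSCs). The genes were chosen by name from the genes that the study listed as down-regulated or up-regulated. Symbols beginning with the stems of the heat shock proteins, J proteins, chaperonins, prefoldins, immunophilins, cyclophilins, protein disulphide isomerases and mitochondrial import proteins (Hsp, Dnaj, Cct, Pfdn, Fkbp, Ppi, Pdia, Timm, Tomm and the like) were kept. This gave 31 genes of the 3716 listed genes that carry a symbol and of the 41096 genes in the expression table. Of the 31 genes, 26 came from the down-regulated list and 5 from the up-regulated list. The study made its lists from the same comparison. Its methods give 5 animals in each group, and which animals entered the lists is not stated. The lists are not treated as independent of the 6 libraries here. The direction of each gene between groups was favoured by the choice and is given as a description, with no test.

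Female mice of the C57BL/6 strain (spelled C56Bl/6 in the labels), 4 weeks old by the study's methods, were exposed to 16 kHz sound in the left ear. In the sound trauma group (specimens 6, 8 and 10, n = 3) the labels give sound alone, and the methods describe an injection of artificial perilymph 48 h after the sound. In the MSC treated group (specimens 13, 18 and 20, n = 3) human MSCs of umbilical cord origin (Wharton's jelly) were delivered through the posterior semicircular canal after the same exposure. Both groups were exposed to sound, and no unexposed cochlea was analysed here. RNA was taken 2 days after treatment by the labels and 72 h after it by the methods, which also give 5 animals in each group where 3 were analysed here. Nothing pairs an animal of one group with an animal of the other. Each library is 1 animal as far as the labels say, and total RNA of the whole left cochlea was sequenced, so that fewer cells of a type and less RNA per cell cannot be told apart. Levels are read counts per gene scaled by 1 factor per library (scaled counts), with 9170390 to 11030863 reads on genes in each library.

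Molecular chaperones hold unfolded proteins and help them to fold. In the cytosol, proteins of the Hsp70 family bind short stretches of unfolded chains. J proteins (the Dnaj genes) bring them their clients, exchange factors such as Hsp110 release the clients, and Stip1 hands some of them to Hsp90. Heat and other stress act through heat shock factors, which bind repeats of the sequence GAA in promoters of the inducible genes. The endoplasmic reticulum (ER) has its own Hsp70, BiP, encoded by Hspa5 and induced when unfolded proteins gather there. Mitochondria take in their proteins through the TOM and TIM complexes, and the mitochondrial Hsp70 (Hspa9) pulls the chains in. Inducible Hsp70 in the inner ear is known for protecting hair cells.

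By compartment, 20 of the 31 genes act in the cytosol or nucleus, 6 in mitochondria and 2 in the ER. The other 3 matched by name only. They are Cryz, a quinone oxidoreductase related to a lens crystallin, Hspg2, which encodes the basement membrane proteoglycan perlecan, and Tomm6os, an antisense RNA at Tomm6. No chaperonin subunit, prefoldin, cyclophilin, disulphide isomerase, calreticulin or heat shock factor gene was among the 31. All 31 genes passed the filter on low counts, as did 15970 genes in all.

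The libraries differed in tissue markers. Only marker genes with a symbol in the study's lists could be named, so that the direction of their sums between groups, like that of the 31 genes, was favoured by the choice. The summed scaled counts of 9 of 12 skeletal muscle genes (among them Ckm, Acta1 and Atp2a1) were 855301 in specimen 6, 32504 in specimen 8 and 192786 in specimen 10 of the sound trauma group. The MSC treated group had 480933 in specimen 13, 72744 in specimen 18 and 79555 in specimen 20. Muscle genes thus took 7.59% of the signal of specimen 6 and 0.339% of that of specimen 8. The sum of 11 of 12 genes of central neurons was 9825, 40669 and 4458 in the sound trauma specimens and 4872, 7418 and 6722 in the MSC treated specimens, highest in specimen 8. The choroid plexus genes (4 of 4) summed to 8082 and 5399 in specimens 6 and 8 and to between 275 and 375 in the other 4 libraries. Of 7 hair cell genes 3 had a symbol (Otof, Pou4f3 and Lhfpl5) and summed to 291, 272 and 674 in sound trauma and to 513, 637 and 488 in MSC treated cochleae. Of 8 genes of cochlear supporting cells, stria and matrix 4 had a symbol (Otog, Otoa, Kcnq1 and Kcne1) and summed to 1676, 1808 and 4202 and to 2880, 3599 and 3069. None of these markers was at 0 in any library, and the sums for cochlear tissue were lowest in specimens 6 and 8.

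Between groups, the scaled counts overlapped in 25 of the 31 genes, and the 95% interval of the fold change reached 0 in all 31. The median log2 fold change (MSC treated over sound trauma, on the log2(scaled count + 1) scale) was −0.21 over the 31 genes, with 26 lower and 5 higher, against 0.00 over all 15970 genes tested, of which 7946 were lower and 8024 higher. The medians were −0.20 over the 20 cytosolic and nuclear genes, −0.24 over the 6 mitochondrial genes and −0.22 over the 2 ER genes. Without specimen 6 the medians were −0.10 over all 31 genes, −0.10 over the cytosolic and nuclear genes and −0.16 over the mitochondrial genes, and 23 of 31 were lower. Without specimen 18 the cytosolic and nuclear median was −0.12. Scaled by total reads, which moved the median of all genes to 0.07, the medians were −0.14 over the 31 genes, −0.13 over the cytosolic and nuclear genes, −0.17 over the mitochondrial genes and −0.15 over the ER genes. The fold changes of 28 of the 31 genes moved by more than 1.5 times when some library was left out, and those of Bag6, Hyou1 and Timm9 did not, although that of Bag6 did when scaled by total reads. With limma, 0 of the 31 genes and 0 of 15970 genes (0%) had an adjusted p under 0.05. At an unadjusted p under 0.05 there were 0 of the 31 genes in either direction, and 0.67% of all genes were lower and 1.68% higher, 376 genes in all (2.35%). With the edgeR quasi-likelihood test and with DESeq2 there were likewise 0 genes past an adjusted p of 0.05. At an unadjusted p under 0.05 edgeR called 525 genes (3.29%), 1 of them a chaperone gene (Hspa1b), and DESeq2 called 799 genes (5%), 2 of them chaperone genes (Hspa1b and Hyou1). Because the genes were chosen on this contrast, nothing is read from these counts about them.

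**Figure D1:**
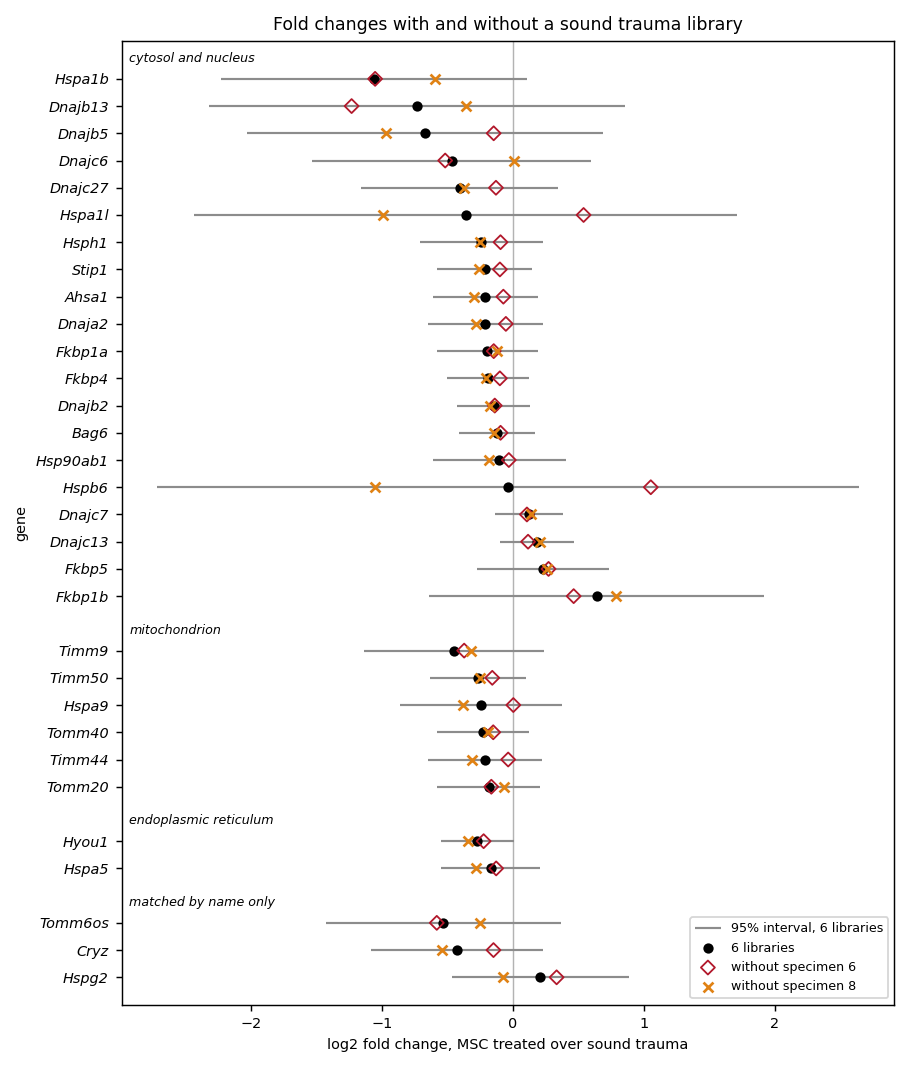
Log2 fold change of each of the 31 genes (MSC treated over sound trauma) on the horizontal axis, by compartment, with 95% intervals of the limma fit to 6 libraries (black points and grey lines, n = 3 in each group) and the fitted value without specimen 6 (open diamonds) and without specimen 8 (crosses). All 31 intervals reach 0, the widest belongs to Hspb6, and the values of Hspb6, Hspa1l and Hspa9 lie above 0 without specimen 6.

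Hspa1b, one of the genes of the stress-inducible Hsp70, had the largest fitted difference. After sound trauma it had 804 scaled counts in specimen 6, 1511 in specimen 8 and 415 in specimen 10. With MSCs it had 539 in specimen 13, 369.7 in specimen 18 and 277 in specimen 20, and values of other genes follow in this order of specimens. Specimens 8 and 6 stood above the MSC treated animals, while specimen 10 lay inside their range, so that the groups overlapped. The log2 fold change was −1.06 ± 0.49 (SE), with a 95% interval of −2.23 to 0.11. It was −0.60 without specimen 8 and −1.53 without specimen 10. Specimens 8 and 6 were also the highest in the neuron and choroid plexus marker sums, and the part of those tissues in the Hspa1b level was not tested. The coding sequence of Hspa1b was identical to that of its neighbour and near copy Hspa1a at 1918 of 1929 aligned positions (99.4%), with an identical run of 638 bases. Reads of the one gene can therefore have been counted on the other, and the level belongs to the pair as much as to Hspa1b. Hspa1l and Hspa8 were less alike (82.2% and 74.1% of aligned positions). The 3 other genes whose log2 levels followed Hspa1b most closely over the 6 libraries were Timm9 (Pearson r of 0.91), Tomm20 (0.81) and Tomm6os (0.79). These are descriptions over 6 libraries that share the depth and the makeup of each sample.

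The promoter of Hspa1b holds the core of a heat shock element, and promoters of the 31 genes were searched for it. Windows of 250 bases before to 50 bases after the start site (RefSeq, GRCm38.p6) were found for 28 of the 31 genes and not for Hsp90ab1, Hspa9 and Hyou1. The core was taken as GAANNTTC or TTCNNGAA, each of which reads the same on both strands. It was present in the windows of 7 of the 28 genes (25%), namely Hspa1b, Hsph1, Fkbp4, Timm9, Tomm20, Dnajc27 and Hspb6, against 17.0% of 27025 genes. A match is a description of the letters in the window and not a bound site. The Hspa1b match begins at position −104 from the start site and is shown in 120 bases of its promoter, and 30 bases are shown around the matches of the exchange factor Hsph1, the Hsp90 partner Fkbp4 and Timm9, whose log2 levels had the highest correlation with those of Hspa1b. Capitals mark the core. In Timm9 a copy of TTCNNGAA and a copy of GAANNTTC overlap. Hsph1 also holds such an overlapping pair after its start site, at positions 36 and 41, which is not printed.
Hspa1b, chr17:34959269-34959388, minus strand: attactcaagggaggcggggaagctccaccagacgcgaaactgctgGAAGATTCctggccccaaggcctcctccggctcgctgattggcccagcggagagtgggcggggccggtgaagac
Hsph1, chr5:149636351-149636380, minus strand: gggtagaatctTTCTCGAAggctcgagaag
Fkbp4, chr6:128438789-128438818, minus strand: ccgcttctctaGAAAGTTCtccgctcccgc
Timm9, chr12:71136857-71136886, minus strand: tattaggctTTCTAGAAATTTCgacagatt

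In the annotation of GRCm38 (GENCODE M21) the Hspa1b and Hsph1 stretches hold no exon, the Fkbp4 stretch lies in an exon of the antisense gene Gm10069, and the Timm9 stretch lies in an exon of the neighbouring gene 2700049A03Rik. The expression table itself names genes of the C57BL/6NJ genome (Hspa1b is MGP_C57BL6NJ_G0024007) and gives no coordinates. Among the 7 genes with the core, scaled counts ran from 66.4 (Timm9, specimen 18) to 14095 (Hspb6, specimen 6). Their log2 fold changes ran from −1.06 (Hspa1b) to −0.04 (Hspb6). All 7 genes came from the down-regulated list, as did 26 of the 31 genes, so nothing is read from this about the core.

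Hsp90ab1, Stip1, Ahsa1 and Hsph1 shared their highest and lowest animals on the deposited scale. Hsp90ab1, the constitutive cytosolic Hsp90, had 16414, 13272 and 14919 scaled counts in sound trauma and 14338, 12742 and 14247 in MSC treated cochleae, and per kilobase of exon it had the highest mean level of the 31 genes (5683). Its log2 fold change was −0.11 ± 0.21 (SE). Specimen 6 was the highest, specimen 18 the lowest, and the groups overlapped. Stip1, which links Hsp70 to Hsp90, had 1964, 1577 and 1516 against 1569, 1294 and 1475, with a log2 fold change of −0.22 ± 0.15. Ahsa1, the activator of the Hsp90 ATPase, had 1057, 771 and 817 against 847, 665 and 759, and −0.21 ± 0.17. Hsph1, the Hsp110 exchange factor of Hsp70, had 1391, 1119 and 944 against 1134, 807 and 971, and −0.24 ± 0.20. On the deposited scale specimen 6 was the highest of all in each of these 4 genes. Specimen 13 was the highest of the MSC treated animals and specimen 18 the lowest of all. In Hsp90ab1 and Stip1 the lead of specimen 13 depends on the scaling, as does that of specimen 6 in Hsp90ab1. Over the 31 genes specimen 6 was the highest library in 17 on the deposited scale and in 11 by total reads. Without specimen 6 the log2 fold changes were −0.03 for Hsp90ab1, −0.10 for Stip1, −0.07 for Ahsa1 and −0.10 for Hsph1. With scaling by total reads they were −0.03 for Hsp90ab1 and −0.14 for Ahsa1.

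The immunophilins (Fkbp genes), prolyl isomerases that bind the drug FK506, did not share a direction. Fkbp4, a partner of Hsp90 on steroid receptors, had 2319, 2004 and 1849 scaled counts in sound trauma and 1885, 1769 and 1734 in MSC treated cochleae, and a log2 fold change of −0.19 ± 0.13 (SE) that was −0.10 without specimen 6. Fkbp1a had 1685, 1742 and 1330.3 against 1467, 1189.8 and 1485, and its −0.20 ± 0.16 was −0.12 without specimen 8, −0.32 without specimen 10 and −0.09 without specimen 18. Both genes overlapped between groups. Fkbp5, an Hsp90 partner that glucocorticoids induce, had 1536, 1506 and 1312 against 1469, 2306 and 1439, and a log2 fold change of 0.23 ± 0.21 that was 0.01 without specimen 18. Fkbp1b, known as a partner of the ryanodine receptor, had 54.5, 86.0 and 72.4 against 64.4, 78.6 and 255, and its log2 fold change of 0.64 ± 0.53 was 0.03 without specimen 20. A single MSC treated animal thus stood above the rest in each of Fkbp5 and Fkbp1b, specimen 18 in the former and specimen 20 in the latter.

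Hspb6 and Hspa1l, a small heat shock protein abundant in muscle and an Hsp70 best known from germ cells, varied most between animals. Hspb6 had 14095, 760.1 and 2795 scaled counts in sound trauma and 8073, 1709 and 2003 in MSC treated cochleae, an 18.5-fold range. Hspa1l had 319.9, 37.3 and 62.5 against 149, 41.9 and 56.3, an 8.58-fold range. In both genes specimens 6 and 13 were high and specimen 8 was the lowest, and the groups overlapped throughout. The order of the 6 libraries in both genes (6, 13, 10, 20, 18, 8 from high to low) was that of the muscle marker sum, an order that 2.43% of all genes tested had. The log2 fold change of Hspb6 was −0.04 ± 1.12 (SE), 1.05 without specimen 6 and −1.05 without specimen 8. It was 0.033 when scaled by total reads, −0.59 with edgeR and −0.61 with DESeq2. That of Hspa1l was −0.36 ± 0.86, 0.54 without specimen 6 and −0.995 without specimen 8, and it was −0.77 with edgeR and −0.79 with DESeq2. The part of muscle in these values was not tested. Of the exon bases of Hspa1l, 1778 overlap those of the antisense gene Gm10501, and since the strand setting of the counting was not given in the sources used here, reads of both genes cannot be told apart.

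**Figure D2:**
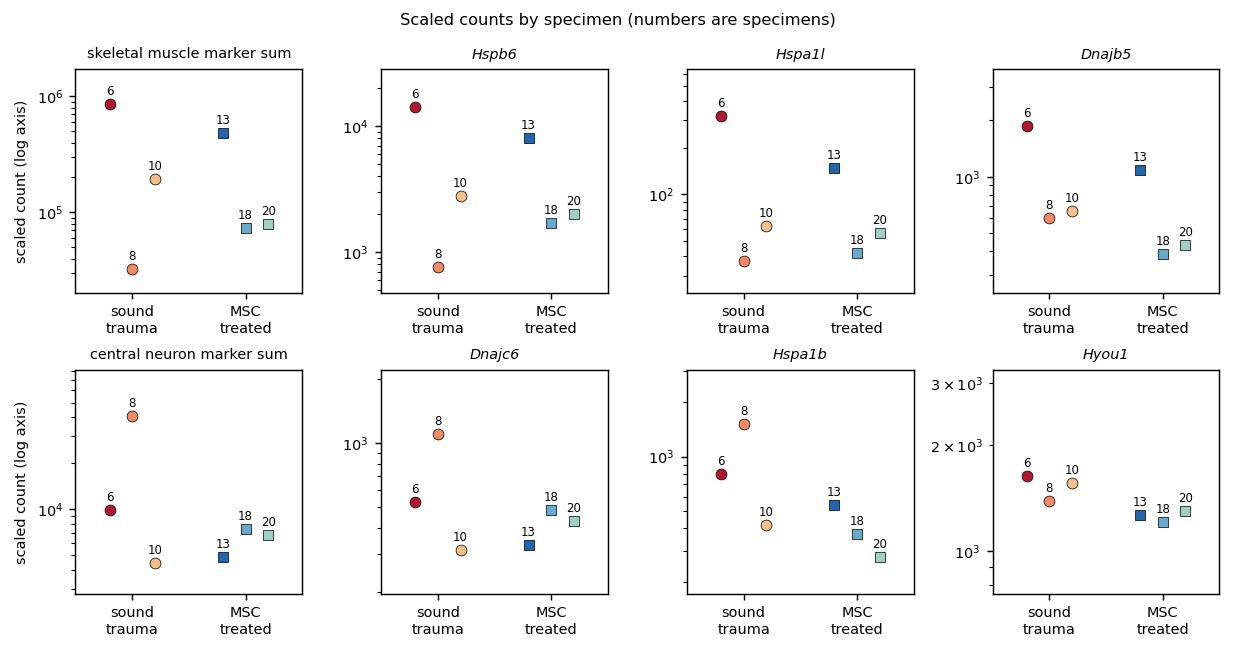
Scaled counts (log axis) in the 3 sound trauma (circles) and 3 MSC treated (squares) specimens, numbered, for the sum of 9 skeletal muscle genes, Hspb6, Hspa1l and Dnajb5 in the upper row and for the sum of 11 central neuron genes, Dnajc6, Hspa1b and Hyou1 in the lower row. Specimens 6 and 13 are the highest in the upper row, specimen 8 is the highest for the neuron sum, Dnajc6 and Hspa1b, and only in Hyou1 do the groups not overlap.

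The J proteins were the largest family, with 8 genes, and their values followed several animals. Dnajb5, a cytosolic J protein, had 1869, 599 and 653 scaled counts in sound trauma and 1080.5, 385 and 432 in MSC treated cochleae. Specimens 6 and 13 were again the high ones, and the log2 fold change of −0.67 ± 0.56 (SE) was −0.15 without specimen 6. Dnaja2, a J protein of the cytosolic Hsp70 cycle, had 1706, 1242 and 1220.4 against 1395, 1106 and 1077, and its −0.21 ± 0.18 was −0.06 without specimen 6. Dnajc27, a small GTPase with a J domain, had 909.8, 647 and 401 against 529, 506 and 377, and its −0.41 ± 0.31 was −0.13 without specimen 6 and −0.72 without specimen 10. The groups overlapped in all 3 genes.

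Dnajc6 (auxilin), which uncoats clathrin vesicles in neurons, went with specimen 8. It had 529.6, 1099 and 314 scaled counts in sound trauma and 330.4, 483 and 430.0 in MSC treated cochleae. On the deposited scale the order of its 6 libraries was that of the neuron marker sum, which 1.18% of all genes tested shared. The places of specimens 6 and 18 in the order of Dnajc6 depend on the scaling. Its log2 fold change of −0.47 ± 0.44 (SE) was 0.01 without specimen 8 and −0.90 without specimen 10. The part of neurons in this value was not tested. Dnajb13, known from motile cilia and sperm tails, was the least abundant per kilobase of exon (5.94). It had 8.11, 29.6 and 20.55 against 4.16, 16.3 and 13.6, with a minimum of 4 reads, and the groups overlapped at a log2 fold change of −0.74 ± 0.66 that was −1.23 without specimen 6, −0.36 without specimen 8 and −0.19 without specimen 13. Of its exon bases 305 overlap those of Ucp2 on the other strand.

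In 6 of the 31 genes the groups did not overlap. Of these, 4 were lower in all MSC treated animals (Bag6, Dnajb2, Hyou1 and Timm50), where 2.92% of all genes tested were, and 2 were higher (Dnajc13 and Dnajc7), where 4.25% were. Direction and separation both come from the contrast that chose the genes, so these counts are descriptions. Bag6, which holds tail-anchored and unassembled proteins for insertion or breakdown, had 3552, 3311 and 3403 scaled counts in sound trauma and 3247, 3095 and 3084 in MSC treated cochleae, and a log2 fold change of −0.12 ± 0.12 (SE). Its range of 1.15-fold over the 6 animals was the narrowest of the 31 genes. Dnajb2, a J protein that hands clients to the proteasome, had 1250.5, 1188 and 1274 against 1013, 1161 and 1183, and −0.15 ± 0.12. Dnajc13, which acts in endosomal sorting, had 730.1, 828 and 863 against 883, 895 and 969.7, and 0.18 ± 0.12. Dnajc7, which binds both Hsp70 and Hsp90, had 1232, 1291 and 1275 against 1343, 1324 and 1478, and 0.12 ± 0.11. The separation was narrow in each, and in Dnajb2 the nearest animals of the groups had 1188 and 1183. Scaled by total reads in place of the deposited factors, only Hyou1 was still separated, with 1 gene lower (1.52% of all genes) and 0 higher (5.23%). Scaled by median ratio, the 4 lower genes were Bag6, Dnajb2, Hyou1 and Cryz, with Timm50 overlapping, and the 2 higher genes were again Dnajc13 and Dnajc7. The log2 fold change by total reads was −0.05 for Bag6, −0.08 for Dnajb2 and 0.20 for Dnajc7.

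The 2 ER genes, Hyou1 and Hspa5, had their low values in different MSC treated animals. Hyou1 encodes GRP170, an exchange factor for BiP. It had 1628, 1384 and 1557 scaled counts in sound trauma and 1263, 1209 and 1297 in MSC treated cochleae, and it was the 1 gene of the 31 whose groups stayed apart under all 3 scalings. Its log2 fold change was −0.27 ± 0.12 (SE), with a range of −0.34 to −0.23 when each library was left out in turn. Hspa5 (BiP) had 4083, 3289 and 4255 against 3158, 3476 and 3642. Specimen 8 lay among the MSC treated animals, and the log2 fold change of −0.17 ± 0.16 was −0.29 without specimen 8, −0.10 without specimen 10 and −0.11 without specimen 13. Neither ER gene had specimen 13 as the highest of the MSC treated animals, which 12 of the 20 cytosolic and nuclear genes had. Of 14 other genes of the unfolded protein response 3 (Atf4, Herpud1 and Manf) had a symbol in the lists, as did 22.1% of all genes tested. Their log2 fold changes were −0.16 ± 0.12, −0.17 ± 0.14 and −0.27 ± 0.16, and none (0 of 3) passed an unadjusted or an adjusted p of 0.05 by limma, by edgeR or by DESeq2, where 2.35%, 3.29% and 5% of all genes had such an unadjusted p. With 3 genes nothing is read from this count.

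The ER stress element joins CCAAT and CCACG with 9 bases between them. Of the 28 genes with promoter windows (36 windows, searched on both strands), Hspa5 alone held it, as did those of 0.137% of all genes. The 30 bases of Hspa5 are printed with both parts in capitals, the first of them at position −65 from the start site. An exon of a longer annotated Hspa5 transcript covers them.
Hspa5, chr2:34772019-34772048, plus strand: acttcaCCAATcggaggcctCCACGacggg

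Both parts without regard to spacing were in a window of 7 of the 28 genes (25%), namely Cryz, Dnajb13, Dnajb5, Fkbp5, Hspa5, Hsph1 and Timm50, against 13.3% of all genes.

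The 6 mitochondrial genes follow the path of an imported protein, and all 6 came from the down-regulated list. Tomm20, the receptor on the outer membrane, had 1136, 1296 and 915 scaled counts in sound trauma and 909, 1081 and 929.9 in MSC treated cochleae, with a log2 fold change of −0.19 ± 0.16 (SE) that was −0.07 without specimen 8 and −0.32 without specimen 10. Tomm40, the pore, had 709, 671 and 537 against 557, 499 and 567, and its −0.23 ± 0.15 was −0.15 without specimen 6 and −0.35 without specimen 10. In both genes specimens 6 and 8 were the highest pair and specimen 10 lay among the MSC treated animals. Timm9, a small chaperone of the intermembrane space, had 121, 129 and 81.3 against 107, 66.4 and 68.9, and −0.45 ± 0.29, the largest difference of the 6.

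Further in, Timm50 guides chains to the inner membrane channel, Timm44 ties Hspa9 to that channel, and Hspa9 (mortalin) draws the chain into the matrix. Timm50 had 496, 435 and 357 scaled counts in sound trauma and 353, 352 and 353 in MSC treated cochleae. Its 3 MSC treated values lay within an SD of 0.544, just under the lowest sound trauma animal, and its log2 fold change was −0.27 ± 0.15 (SE). Timm44 had 838, 574 and 587 against 620.2, 528 and 551, and −0.21 ± 0.18. Hspa9 had 3754, 2214 and 2287 against 2836, 2024 and 1992, and −0.24 ± 0.26. In both Timm44 and Hspa9 specimen 6 stood apart, specimen 13 came next and the other 4 animals lay together. Without specimen 6 the log2 fold change was 0.00 for Hspa9, −0.04 for Timm44 and −0.16 for Timm50.

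The median mitochondrial gene stood 0.53 (log2) above the MSC treated mean in specimen 6, 0.31 above it in specimen 8 and 0.02 above it in specimen 10. Over all 31 genes these medians were 0.39, 0.09 and 0.04. On the deposited scale the level above the MSC treated mean was thus larger in specimen 6 than in specimen 8 and smallest in specimen 10. With scaling by total reads the mitochondrial medians were 0.31, 0.33 and 0.00 in specimens 6, 8 and 10, and those over all 31 genes were 0.18, 0.11 and 0.02. The 2 ER genes had 0.31, 0.04 and 0.31 on the deposited scale and 0.10, 0.06 and 0.29 when scaled by total reads.

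**Figure D3:**
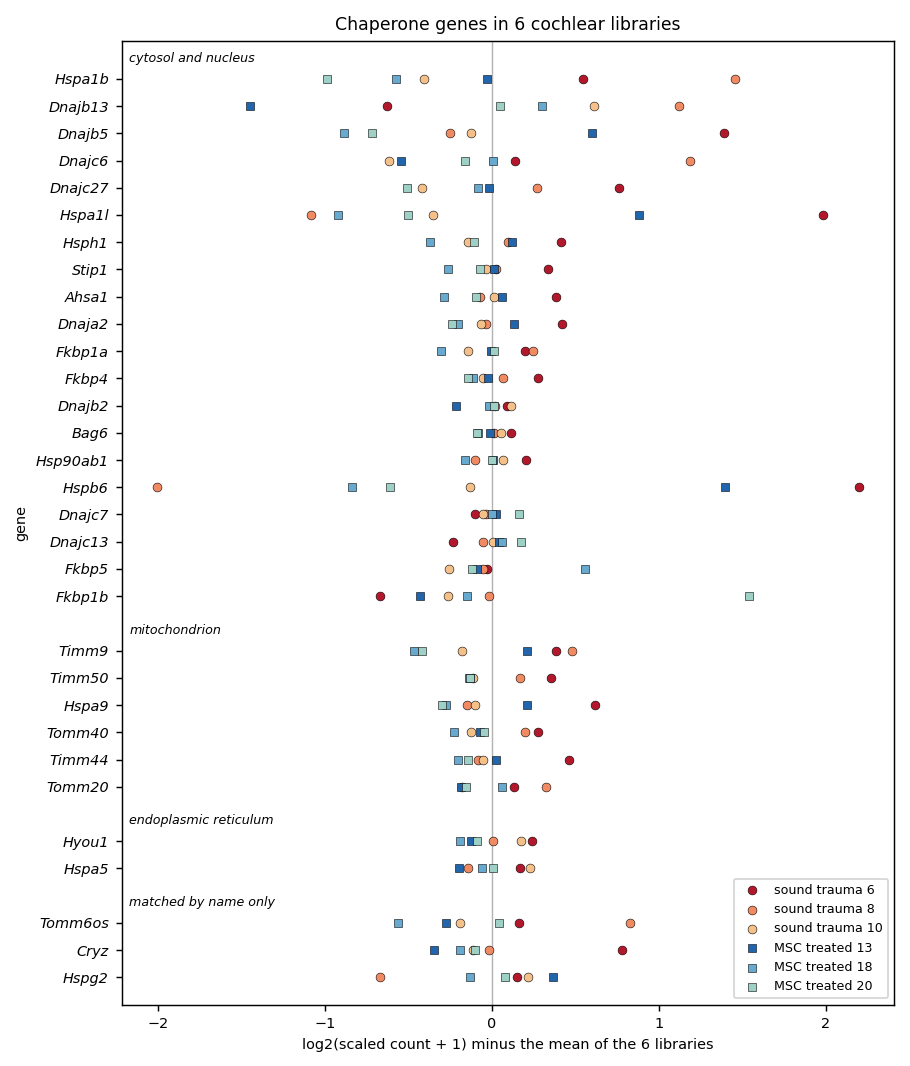
Log2(scaled count + 1) of each of the 31 genes in each library minus the mean of the 6 libraries (horizontal axis), by compartment, with sound trauma specimens as circles and MSC treated specimens as squares. Specimen 6 is the rightmost point in 17 of the 31 genes, Hspb6 and Hspa1l spread the furthest, and most other genes lie within a narrow band.

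Specimen 6 was the highest of the 6 libraries in 17 of the 31 genes (54.8%), where 21.1% of all genes tested had it highest. Specimen 8 was the highest in 7 genes (22.6%, against 28.2% of all genes), specimen 10 in 2, specimen 13 in 1, specimen 18 in 1 and specimen 20 in 3. The choice of genes favoured the sound trauma animals, so the comparison was also made with the other genes chosen in the same way. Among the 26 genes of the 31 that came from the down-regulated list specimen 6 was the highest sound trauma animal in 17 (65.4%). Among all 2447 tested genes with a symbol in that list, the 26 included, it was the highest in 30.2%, while specimen 8 was the highest in 67.8%. As a description, with no test, the down-regulated list followed mostly specimen 8 and these 26 genes mostly specimen 6. On the deposited scale specimen 6 also had the highest summed scaled count in certain other listed genes. These were the 3 unfolded protein response genes (4691), the 3 proteasome genes (1503) and the 5 genes of protein breakdown (6810). As a share of the total signal these sums were highest in other libraries. The unfolded protein response sum was highest in specimen 10 (0.0454%, against 0.0416% in specimen 6). The proteasome sum was highest in specimen 20 (0.0150%, against 0.0133% in specimen 6). The breakdown sum was highest in specimen 8 (0.0690%, against 0.0604% in specimen 6). Scaled by total reads, specimen 6 was the highest of all 6 libraries in 11 of the 31 genes (12.2% of all genes) and specimen 8 in 11. On that scale specimen 6 was the highest sound trauma animal in 11 of the 26 genes (42.3%, against 23.9% of the list).

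**Figure D4:**
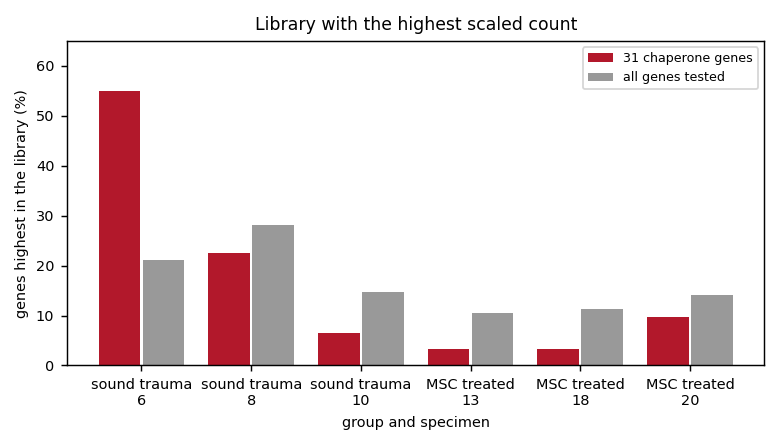
Share of genes (vertical axis, percent) whose highest scaled count of the 6 libraries was in each specimen, for the 31 chaperone genes (red) and all 15970 genes tested (grey). Specimen 6 holds 54.8% of the chaperone genes and 21.1% of all genes.

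Within the MSC treated group, specimen 13 was the highest in 16 of the 31 genes (51.6%), against 34.0% of all genes tested. It was so in 15 of the 26 genes of the down-regulated list (57.7%), against 36.2% of that list. In 13 of the 31 genes (41.9%) specimen 6 was the highest sound trauma animal and specimen 13 the highest MSC treated one, against 19.3% of all genes tested. All 13 were among the 26 genes of the down-regulated list (50%), against 24.1% of that list. The 13 genes were Ahsa1, Bag6, Dnaja2, Dnajb5, Dnajc27, Fkbp4, Hsp90ab1, Hspa1l, Hspa9, Hspb6, Hsph1, Stip1 and Timm44. Specimens 6 and 13 were also the pair with the highest muscle marker sums, and the part of muscle in this pattern was not tested. Scaled by total reads there were 8 such genes (against 11.7% of all genes).

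The range between animals differed widely among the 31 genes. The highest library was a median of 1.59 times the lowest, and 1.73 times over the 15938 genes tested with a read in every library. The ratio was under 1.5 in 12 genes, from 1.5 to 3 in 12 and 3 or more in 7. The 7 were Hspb6, Hspa1l, Dnajb13, Hspa1b, Dnajb5, Fkbp1b and Dnajc6, all of the cytosol or nucleus. The 6 mitochondrial genes ranged from 1.41-fold (Timm50) to 1.94-fold (Timm9), and both ER genes 1.35-fold. Per kilobase of exon, Hsp90ab1 (5683) was followed by Hspb6 (3599), Hspa5 (972), Fkbp1a (895), Fkbp4 (869), Hspa9 (826) and Bag6 (813) in mean scaled count. The level of Hspb6 rests on specimens 6 and 13.

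Of the 3 genes that matched by name only, Cryz had 203, 117 and 109 scaled counts in sound trauma and 92.5, 103 and 109.7 in MSC treated cochleae, with a log2 fold change of −0.43 ± 0.27 (SE) that was −0.15 without specimen 6. Hspg2 had 5264, 2983 and 5517 against 6117, 4341 and 5019, and its 0.21 ± 0.28 was −0.08 without specimen 8. Tomm6os had 24.3, 39.2 and 18.8 against 17.7, 14.3 and 22.3, and its −0.53 ± 0.37 was −0.25 without specimen 8. On the deposited scale the groups overlapped in all 3 genes, while by median ratio those of Cryz did not. The exons of Tomm6os share bases with Tomm6 (219), Gm21981 (958) and Prickle4 (739) on the other strand, so its reads are uncertain. Leaving these 3 genes out, the median log2 fold change of the remaining 28 was −0.21.

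Of 20 genes that work beside chaperones in protein breakdown 5 had a symbol in the lists (Ubqln1, Ubqln2, Ubqln4, Lonp1 and Sgta), as did 22.1% of all genes tested. Their log2 fold changes had a median of −0.27, from −0.30 ± 0.19 (SE) for Ubqln2 to −0.13 ± 0.13 for Ubqln1, and 0 of 5 had an unadjusted p under 0.05 by limma, edgeR or DESeq2, a count too small to set against the 2.35%, 3.29% and 5% of all genes. Of the proteasome genes 3 had a symbol. Psmg4, an assembly chaperone of the proteasome, had 49.8, 50.7 and 51.8 scaled counts in sound trauma and 75.8, 75.6 and 71.8 in MSC treated cochleae. The groups did not overlap, the spread within each was narrow, and the log2 fold change was 0.54 ± 0.19. It was the 1 proteasome gene of the 3 at an unadjusted p under 0.05 by limma, edgeR and DESeq2 (2.35%, 3.29% and 5% of all genes), and 0 of the 3 had an adjusted p under 0.05. Of all genes 4.25% were higher without overlap, as Psmg4 was. The immunoproteasome subunit Psmb8 had a log2 fold change of 0.32 ± 0.21 and the ATPase subunit Psmc5 one of −0.21 ± 0.15. These genes too were listed by the study from the same comparison, so their direction is a description.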

How the data were processed

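Libraries of total RNA from the left cochlea were made with the NuGen Universal Plus kit and sequenced on a NovaSeq, and the reads were trimmed and aligned by the authors to the C57BL/6NJ genome (Ensembl) with the AIR package. The counting tool and its strand setting are not given in the sources used here. The authors deposited a signal for 41096 genes, which is each read count times a factor shared by the whole library. All values (100%) were whole multiples of the value of 1 read, within 3.8e-10 of a whole number, and read counts were recovered from them. Their lists of changed genes also hold deposited FDR values (a p-value adjusted by the authors), a log2 fold change and a mean FPKM, and none of these columns was used. NOISeq, the authors' test, was not run.

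The main fit was limma-trend (limma 3.58.1, R 4.3.3) on log2(scaled count + 1) for the 15970 genes that passed filterByExpr on the recovered reads, of 25369 with at least 1 read, with Benjamini-Hochberg adjustment over all of them. Alternatives were edgeR 4.0.16 (quasi-likelihood), DESeq2 1.42.0, other filters (none beyond 1 read, or 10 reads in every library), pseudocounts of 0.1 and 10, scaling by total reads or median ratio, and each library left out. Fold changes on the log2 scale with a pseudocount understate those of low genes, and depth limits Dnajb13 and Tomm6os most.

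The members, lists and tests were chosen with earlier results of these data known. Within each compartment the genes named with values were up to 6 with the largest fold changes and up to 3 with the highest levels, with all whose groups did not overlap, and the other members were then added so that each of the 31 is accounted for. Compartments were assigned from general knowledge. Levels per kilobase used the union of exons in GENCODE M21 (GRCm38), and shared exon bases and Hsp70 coding sequences came from the same annotation. Promoters came from RefSeq (GRCm38.p6). Protein sequences were not used here. P-values set the difference between groups against the spread among the 3 animals within each, with information on spread shared over genes. The 31 genes were chosen on this contrast, so their p-values are descriptions. Python 3.11.15 and pandas 2.3.3 were used for the descriptions.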

Additional observations from a re-analysis of the deposited data

How the results depend on the processing

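No paired analysis was possible because the groups share no specimen number. Over 14 alternatives, 433 fold changes of the 31 genes were refitted and 9 had the opposite sign, in 5 genes, 8 of them on leaving out 1 library. Leaving out 1 library moved Hspb6 between −1.05 and 1.05, Hspa1l between −0.995 and 0.538, Dnajc6 between −0.896 and 0.0066, Hspa9 between −0.41 and 0.0017 and Hspg2 between −0.077 and 0.366. Hspb6 was 0.033 when scaled by total reads. The count of genes with a higher fitted value was 5 to 8 on leaving out 1 library. The count of lower genes at an unadjusted p under 0.05, 0 with limma, was 1 with edgeR and 2 with DESeq2, and 0 to 5 on leaving out 1 library. The 5 came without specimen 10, when 2544 genes of all had such a p, against 376 with 6 libraries. No setting gave one of the 31 genes an adjusted p under 0.05. Scaled by total reads, specimen 6 was the highest library in 11 genes, specimen 8 in 11 and specimen 10 in 4, 1 gene was lower without overlap and 0 higher, and specimens 6 and 13 led their groups in 8. By median ratio, specimen 10 was the highest in 1 gene. The cause of these shifts was not tested. With 3 animals in each group the intervals of the fold changes spanned 0 for all 31 genes. The counts of specimens 6 and 13 leading together were added after the data were seen.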
